A study of Drosophila melanogaster with 8 samples.

Results

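Sites of RNA polymerase II (RNAPII) at Copia superfamily retrotransposons were examined in Drosophila melanogaster S2 cells after knockdown of the linker histone H1. S2 is an established line of embryonic origin with hemocyte features. The members are the sites whose repeat annotation names an element of class LTR and family Copia, which holds for 666 of 14357 entries (4.64%) of the authors' deposited table. Each entry is 1 peak from 1 of 2 peak lists, so overlapping entries (1 bp or more) count here as a single locus, with the values of its entry of highest mean concentration. This left 346 Copia loci of 7911 in all, or 12.8% of the 2705 loci with a repeat annotation. Those 346 loci hold 660 of the 666 entries, and the other 6 lie in 6 loci whose leading entry has another annotation. All members have a value, and no further filter on low values was applied here. A site entered only as a called peak of at least 1 list, so copies with too little signal for a peak are absent.

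RNAPII was precipitated from cells with H1 knocked down (KD H1) and from LacZ cells, the control against a bacterial gene that fly cells lack. There were 2 precipitations and 2 input libraries in each condition, 8 libraries in all, and the inputs are labelled as 10% of the chromatin. The labels give neither the knockdown agent, nor its duration, nor the H1 level that remained, and no file used here measures H1. For each site the files give a log2 concentration averaged over the libraries of a condition, and each condition has a single peak list from pooled libraries. Neither depth nor the values of single libraries are therefore known, and no value below carries a replicate error. The authors' DiffBind p-values are the one measure that draws on the replicates, and the labels do not say whether those came from separate cultures. A fold below is the log2 concentration in H1 knockdown minus that in LacZ, as the authors deposited it, and positions are in dm3.

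Copia elements are retrotransposons flanked by long terminal repeats (LTRs). The LTR carries the promoter and the end signal of the element's RNA, and the internal part between both LTRs encodes the Gag protein, protease, integrase, reverse transcriptase and RNase H. In this superfamily the integrase precedes the reverse transcriptase, the reverse of the order in the Gypsy superfamily. The founding element, Copia, takes its name from the abundance of its RNA in cultured fly cells. H1 binds the DNA between nucleosomes, compacts chromatin and takes part in the silencing of transposons in flies.

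As a check of the cell type, 9 of 11 hemocyte marker genes had a site within 1000 bp of their transcription start site (TSS), among them srp, Pxn, Hml and Col4a1, and Sr-CI and NimC1 had none. The same held for 1 of 4 neuronal markers (elav), 1 of 4 germline markers (bam), 0 of 3 fat body markers and 0 of 3 muscle markers.

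The annotation named 4 elements among the members. Copia itself had 161 loci, of which 63 lay at its LTR and 98 in its internal part. DM1731, an element whose transcripts are known to fall after ecdysone in cultured fly cells, had 158 loci, 60 at the LTR and 98 in the internal part. Copia2 had 5 LTR and 10 internal loci, and FROGGER had 12 loci, all internal. Most loci lay on the heterochromatic or unplaced scaffolds, 292 of 346, with 201 on Uextra and 67 on U alone. U and Uextra join unplaced pieces end to end, so a distance between a site and a gene there need not be a distance in the genome. Among the parts of Copia and DM1731, the internal part of Copia was the exception, with 36 of 98 loci on the chromosome arms. The counts were 2 of 63 for its LTR, 5 of 98 for the internal part of DM1731 and 3 of 60 for the LTR of DM1731. A locus carries 1 label, and 27 of the 36 were at least 4500 bp wide. Any LTR inside such a wide locus is not counted as an LTR locus. By gene annotation, 232 of the 346 loci were labelled as intron and 114 as between genes. A host gene symbol was found for 179 of the 232. On Uextra the hosts include histone and ribosomal RNA genes, such as His3:CG33818 and 28SrRNA:CR45837. An intron label on joined sequence therefore need not place a site inside a gene.

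The first comparison asked whether RNAPII occupancy at these elements differed after H1 knockdown. By DiffBind, no Copia locus passed a false discovery rate (FDR) of 0.05, as was true of all 7911 loci (0%). The FDR was 1 at every Copia locus. At an unadjusted p under 0.05, 2 Copia loci were higher in H1 knockdown (0.578%) and 0 were lower, where 5.09% of all loci were higher and 0.101% lower. The share of Copia loci called higher was therefore below that of all loci, and that of the other repeat loci was 1.02%. No call of a change is made for any site below, and the folds are given as a description. Loci of an element share sequence, and a read may fit several copies, so loci are not replicates of a condition.

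Over all 346 loci the median fold was 0.00, with quartiles at -0.04 and 0.08 and a range of -0.25 to 0.54. A fold above 0 was found at 164 loci, one of exactly 0 at 12 and one below 0 at 170. The 2359 other repeat loci had a median of -0.04 with 28.4% above 0, and all 7911 loci had a median of 0.08 with 68.2% above 0. Among the latter, the 5206 loci with no repeat annotation had a median of 0.15 with 87.6% above 0. The sources used here do not say how libraries were scaled, so 0 is not a fixed point and folds are best read against these medians.

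**Figure D1:**
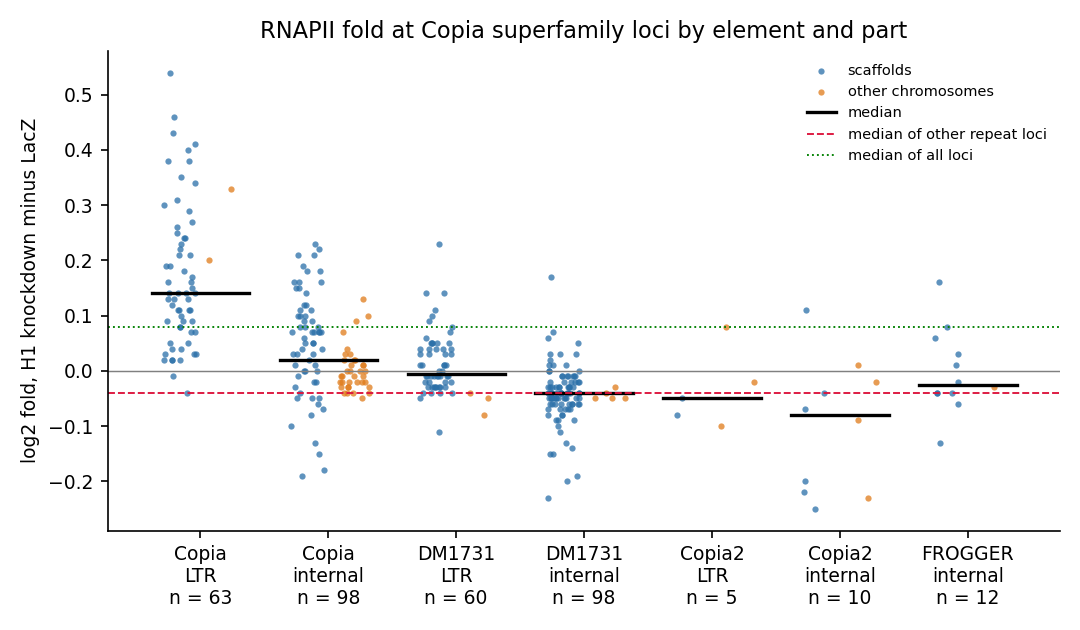
Log2 fold (H1 knockdown minus LacZ) of each Copia superfamily locus by element and part, with loci on scaffolds in blue, loci on other chromosomes in orange and a black bar at the median. The LTR of Copia has the highest median, 0.14, above both the median of all loci (0.08, dotted) and that of other repeat loci (-0.04, dashed), and the internal part of DM1731 sits at -0.04. The median of loci with no repeat annotation, 0.15, is not drawn.

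The LTR of Copia had the highest folds among the members. Its 63 loci had a median fold of 0.14, a ratio of 1.1, with quartiles at 0.08 and 0.245 and a range of -0.04 to 0.54. The fold was above 0 at 61 of 63 loci. The log2 concentration had a median of 7.94 in H1 knockdown (6.27 to 8.73) and of 7.78 in LacZ (5.90 to 8.66). Of the 34 repeat names with at least 20 loci, the Copia LTR had the highest median, followed by the LTR of the Gypsy superfamily element MDG1 at 0.07. The Copia LTR was thus high for a repeat, but its median lay near that of loci with no repeat annotation, 0.15. Both Copia loci with an unadjusted p under 0.05 and all 5 Copia loci of largest fold were Copia LTRs, although no locus passed the FDR.

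The 2 loci with an unadjusted p under 0.05 lay on unplaced sequence. The LTR on U from 9572293 to 9572728 had a log2 concentration of 7.68 in H1 knockdown and 7.22 in LacZ, and DiffBind gave a fold of 0.46 with p = 0.0318 in the authors' deposited table. The table names no gene for it, and the nearest TSS lay 15088 bp away on the joined sequence. The LTR on Uextra from 4666877 to 4667365 had 7.74 in H1 knockdown and 7.33 in LacZ, and DiffBind gave a fold of 0.41 with p = 0.0448 in the authors' deposited table. The gene named for it, snmRNA:430j, lay 279825 bp away on the joined sequence, so it says little of the site's surroundings. Both loci had a peak in each list.

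The remaining 3 of the 5 largest folds also came from Uextra. The largest of all, 0.54, was at 3133046 to 3133379, with a log2 concentration of 6.83 in H1 knockdown and 6.29 in LacZ (DiffBind p = 0.0578 in the authors' deposited table). This locus had a peak in the H1 knockdown list only, and its concentration was among the lower ones of the group. The locus at 3524582 to 3525005 had 7.12 in H1 knockdown and 6.69 in LacZ, with a fold of 0.43 in the authors' deposited table. That at 3450516 to 3450947 had 7.82 in H1 knockdown and 7.42 in LacZ, with a fold of 0.40 in the authors' deposited table.

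Among Copia LTRs the fold was larger where the concentration was lower. The 12 loci with a mean log2 concentration under 7 had folds of 0.19 to 0.54 and a median of 0.295, and the 27 loci at 8 or above had a median of 0.08. Of the 12, 6 were loci with a peak in H1 knockdown alone, which entered the table through the condition where they were higher, so their folds are not free of that choice. The 6 with peaks in both lists had folds of 0.19 to 0.43 and a median of 0.295 as well. Spearman's rho between fold and mean concentration was -0.72 over the 63 loci, as a description across loci that share sequence and libraries. Over the 56 Copia LTRs with peaks in both lists rho was -0.69. The concentration enters the fold, and its part in the relation was not tested. Other repeats showed no such relation (rho 0.01 over 2359 loci). With a concentration under 7.5, the 20 Copia LTRs had a median fold of 0.28 and none below 0.09, against a median of -0.05 for 757 repeat loci outside the superfamily and of 0.00 for 133 LTRs of the other superfamilies. All 7 Copia LTRs with a peak in H1 knockdown alone are among these 20. With peaks in both lists, the 13 Copia LTRs under 7.5 had a median of 0.29 and none below 0.09, against -0.04 for 360 other repeat loci and -0.025 for 72 LTRs of the other superfamilies. From 8 to 8.5 the 22 Copia LTRs had a median of 0.09, and the 96 other LTRs one of -0.02.

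**Figure D2:**
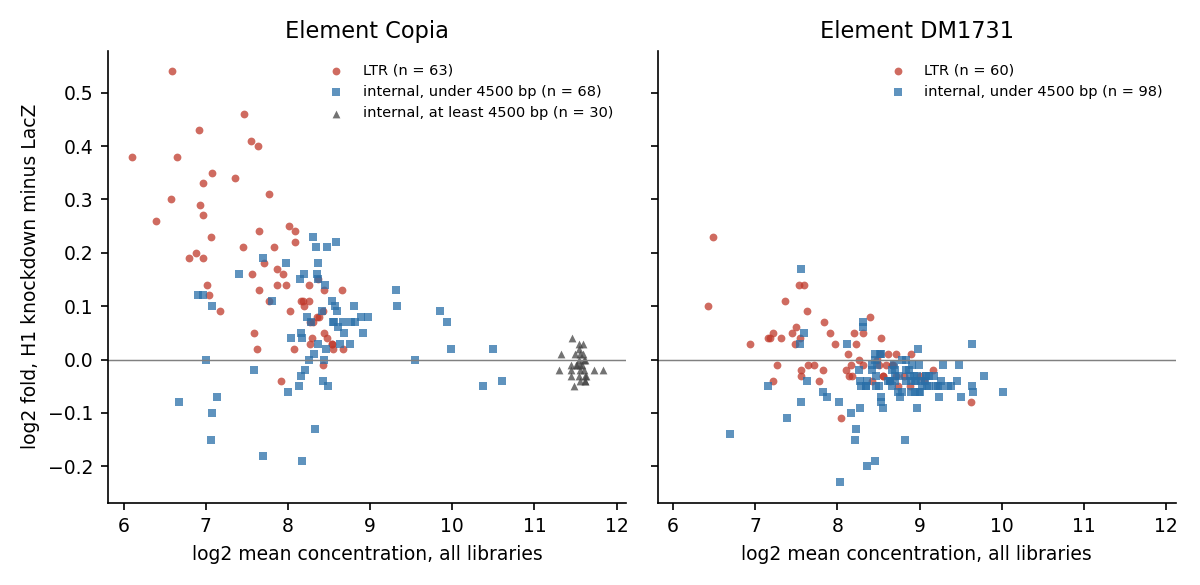
Log2 fold (H1 knockdown minus LacZ) against log2 mean concentration over all libraries for each locus of Copia (left) and DM1731 (right), by part and width. Copia LTRs (red circles) reach their largest folds at low concentration, up to 0.54, and the 30 Copia loci of at least 4500 bp (grey triangles) form a tight group near a concentration of 11.6 and a fold of 0.

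The internal part of Copia fell into loci of very different width. The annotation places 30 loci of at least 4500 bp in it, a limit chosen with the widths known, and the next widest locus had 3268 bp. Their widths had quartiles at 5150 and 5174 bp, so the peak covered nearly the same length at most copies. The widest, 7146 bp, was joined to a neighbouring MDG3 peak of the Gypsy superfamily. These wide loci had a median log2 concentration of 11.55 in H1 knockdown (11.29 to 11.81) and of 11.56 in LacZ (11.31 to 11.84). Their levels were nearly the same from locus to locus, as the standard deviation of the mean concentration over the 30 loci was 0.103. How reads that fit several copies were placed is unknown here. The 30 loci may therefore not be separate measurements of each copy, whether in level, fold or summit.

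The fold of the wide loci stayed close to 0. It ranged from -0.05 to 0.04 with a median of -0.01, and DiffBind gave p of 0.673 to 0.989 in the authors' deposited table. Of these loci, 27 lay on the chromosome arms, 2 on 3LHet and 1 on 3RHet, and none on U or Uextra. Their largest fold, 0.04, lay below the lower quartile of the Copia LTRs, 0.08. The 2 groups do not overlap in level, however. The mean log2 concentration was at least 11.3 at wide loci and at most 8.67 at Copia LTRs, whose fold was smaller at higher concentration. The part of level in this difference was not tested.

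The peak summit of the wide loci lay near 1 end. In 28 of 30 it was within 300 bp of the nearer end of the locus, at a median distance of 173.5 bp (159 to 764 bp). The left end was the nearer one at 17 loci and the right end at 13, and the files do not give the orientation of the copies. Where each list had a single wide peak, at 29 loci, the summits of the H1 knockdown and LacZ lists lay at the same end in all 29 and less than 50 bp apart.

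**Figure D3:**
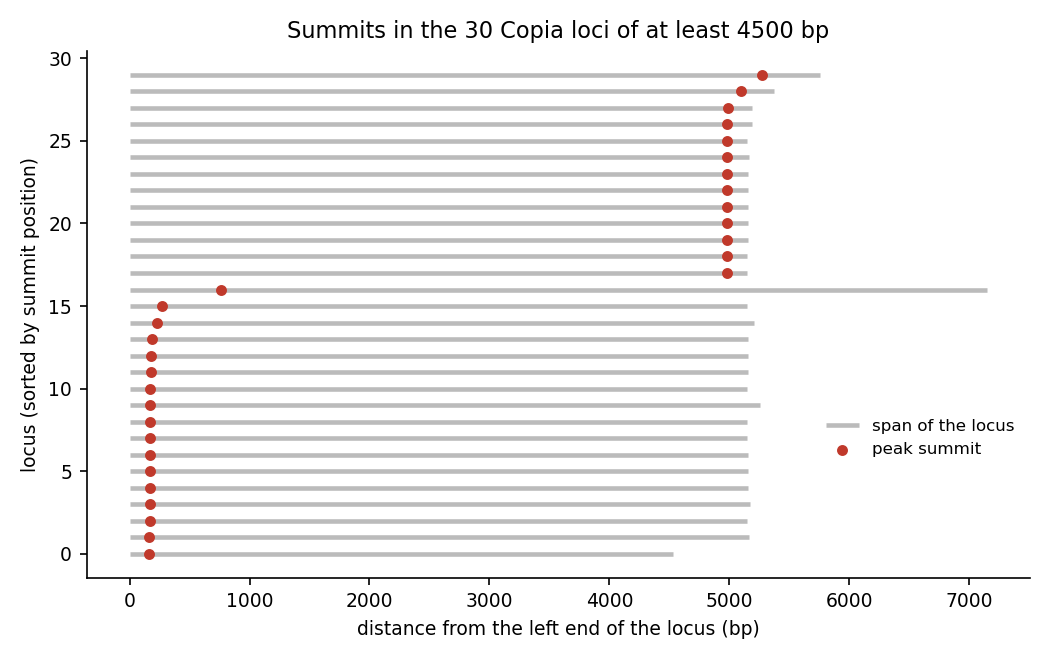
Position of the peak summit (red) along each of the 30 Copia loci of at least 4500 bp (grey spans), in bp from the left end of the locus. Nearly all summits sit within 300 bp of 1 end, 17 at the left and 13 at the right.

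Of the 30 wide loci, 16 lay in introns and 14 between genes, 2606 to 117878 bp from the nearest TSS. Copies in introns included those in rut, which encodes an adenylyl cyclase needed for learning, in for, a cGMP-dependent protein kinase gene, and in Nipped-A, which encodes a large subunit of histone acetyltransferase complexes. At rut (X, 14712849 to 14718008) the log2 concentration was 11.62 in both H1 knockdown and LacZ. At for (2L, 3649841 to 3654989) it was 11.54 in H1 knockdown and 11.57 in LacZ, and at Nipped-A (2R, 1105256 to 1110407) 11.59 in H1 knockdown and 11.63 in LacZ. The copies in sls, which encodes the titin-like protein of muscle, and in Tg, the transglutaminase gene, had folds of -0.01 and 0.00 in the authors' deposited table. The occupancy at such a copy is that of the repeat, and says nothing of RNAPII on the host gene. All copies named here are those of the dm3 assembly, and nothing used here shows which of them these S2 cells carry.

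The 6 Copia superfamily loci of highest mean concentration, tied at the lowest place, were all wide Copia loci on arms, and the locus in rut is among them. The other 5 lay in an intron of Ir40a (2L, 22201109 to 22206866; 11.81 in H1 knockdown and 11.84 in LacZ), 11335 bp from the TSS of CG17570 (11.71 in H1 knockdown and 11.73 in LacZ), 4173 bp from that of CG33308 (11.62 in H1 knockdown and 11.65 in LacZ), in an intron of beat-Vb (11.60 in H1 knockdown and 11.64 in LacZ) and 5065 bp from the TSS of lncRNA:CR44495 (11.61 in H1 knockdown and 11.64 in LacZ). The folds of these 5 were -0.04 to -0.02 in the authors' deposited table. The locus nearest to CG17570 is the one joined to MDG3.

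The other 9 internal Copia loci on the arms fell into 4 groups with gaps under 1000 bp, each group spanning 4429 to 5173 bp. Together with the 27 wide loci they make 31 Copia copies on the arms whose peaks span most of an element. On 2L from 16141217 to 16146371 the 2 pieces had folds of 0.09 and -0.04, and on 3R from 27238865 to 27244037, in an intron of Gprk2, which encodes a G protein-coupled receptor kinase, the pieces had -0.05 and 0.07. On 3L from 12950942 to 12955370 the 2 pieces had 0.13 and 0.02, and on 2L from 23004572 to 23009697 the 3 pieces had 0.10, 0.00 and 0.02. The smallest DiffBind p of these 9 was 0.404 in the authors' deposited table.

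The 59 shorter internal Copia loci on scaffolds had a median fold of 0.07, with quartiles at 0.00 and 0.115 and a range of -0.19 to 0.23. Of these, 42 had a fold above 0. Their median log2 concentration was 8.37 in H1 knockdown and 8.27 in LacZ. On Uextra the internal Copia loci had a median of 0.05 (41 loci) and on U one of 0.07 (16 loci). The spread of folds was wider here than among the wide loci, and the smallest DiffBind p was 0.208 in the authors' deposited table.

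A single stretch of 2L held a Copia LTR pair next to a wide Copia locus, with CG10651 as the nearest gene, 21061 bp or more away. The LTR loci at 20155835 to 20156133 and 20157417 to 20157737 are also the only loci labelled as Copia LTR on an arm. The first had a log2 concentration of 6.98 in H1 knockdown and 6.78 in LacZ, a fold of 0.20 in the authors' deposited table. The second had 7.13 in H1 knockdown and 6.80 in LacZ, a fold of 0.33 in the authors' deposited table. The wide locus at 20159017 to 20164220 had 11.33 in H1 knockdown and 11.32 in LacZ, with a fold of 0.01 in the authors' deposited table. Both LTRs were peaks of the H1 knockdown list only, and their DiffBind p were 0.448 and 0.210 in the authors' deposited table.

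DM1731 gave lower folds than Copia in both parts. Its 60 LTR loci had a median fold of -0.005 (-0.11 to 0.23), with 28 above 0 and 30 below 0. Its 98 internal loci had a median of -0.04 (-0.23 to 0.17), with 11 above 0 and 84 below 0. The internal loci thus matched the median of the other repeat loci, -0.04. The log2 concentration of the internal loci had a median of 8.70 in H1 knockdown and 8.745 in LacZ, and that of the LTR loci one of 8.145 in H1 knockdown and 8.16 in LacZ. All 8 DM1731 loci on arms had a fold below 0, between -0.08 and -0.03. Their median, -0.05, was that of the 678 repeat loci outside the superfamily on arms, of which 485 were below 0. Some of the 8 lay close together, such as an LTR and an internal locus on 3R with a gap of 727 bp. The 6 smallest folds of the superfamily, with a tie at the fifth place, included 2 of DM1731. One was an internal DM1731 locus on U from 4583682 to 4583985, in an intron of the Y-linked gene WDY, with 7.92 in H1 knockdown and 8.14 in LacZ (fold -0.23, DiffBind p = 0.184 in the authors' deposited table). The other was on U from 7888215 to 7888522, a LacZ-only peak with 8.26 in H1 knockdown and 8.46 in LacZ (fold -0.20, DiffBind p = 0.218 in the authors' deposited table). Fold and concentration were related at DM1731 LTRs as well (rho -0.53 over 60 loci), and not at its internal loci (rho 0.07 over 98 loci).

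Copia2 held the other 4 of the 6 smallest folds, all internal, and 3 of them had a peak in LacZ alone. On U from 116971 to 117820, in an intron of DIP-lambda, an immunoglobulin superfamily gene, the log2 concentration was 8.11 in H1 knockdown and 8.35 in LacZ (fold -0.25, DiffBind p = 0.151 in the authors' deposited table). On 2R from 845545 to 845882, in an intron of the ionotropic receptor gene Ir41a, it was 7.09 in H1 knockdown and 7.33 in LacZ (fold -0.23, DiffBind p = 0.265 in the authors' deposited table). On Uextra from 10392866 to 10393138 it was 6.82 in H1 knockdown and 7.04 in LacZ (fold -0.22, DiffBind p = 0.371 in the authors' deposited table). The fourth, on U from 3340960 to 3341773, had peaks in both lists, with 8.29 in H1 knockdown and 8.49 in LacZ (fold -0.20, DiffBind p = 0.219 in the authors' deposited table). Over 10 internal loci the median of Copia2 was -0.08, and over 5 LTR loci -0.05. Of the 10 internal loci, 6 had peaks in both lists, 3 in LacZ alone and 1 in H1 knockdown alone. Loci of a single list entered through 1 condition, so the internal median is not free of that choice. Of the 5 Copia2 LTR loci, 3 lay on 3R within 9620 bp of lncRNA:alphagamma-element:CR32865, a transcript of the Hsp70 gene cluster, with folds of 0.08, -0.02 and -0.10 in the authors' deposited table.

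FROGGER had a median fold of -0.025 over 12 internal loci, with a range of -0.13 to 0.16. One of them, on 2RHet from 1258289 to 1263279, was 4991 bp wide and had a log2 concentration of 11.31 in H1 knockdown and 11.30 in LacZ, close to the wide Copia loci. Enrichment over input set it apart from them: FROGGER peaks reached at most 2.32 in the H1 knockdown list and 2.16 in the LacZ list, and wide Copia peaks had at least 15.6 in the H1 knockdown list and 9.28 in the LacZ list.

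Level and enrichment over input ordered the elements differently. Per kb, the median log2 mean concentration was 9.837 at internal DM1731 loci, 9.309 at DM1731 LTRs, 9.148 at Copia2 LTRs, 9.079 at internal Copia loci (9.174 at the wide ones), 9.005 at Copia LTRs, 8.80 at FROGGER and 8.788 at internal Copia2 loci, and it was 9.155 over all loci. The enrichment of a peak over input is the authors' own value and was read only within a list. In the H1 knockdown list, internal Copia peaks had a median enrichment of 13.5 and Copia LTR peaks 11.1, against 6.12 at DM1731 LTRs, 2.24 at internal DM1731 peaks and 3.64 over all peaks of that list. In the LacZ list the medians were 8.68 for internal Copia, 8.67 for Copia LTRs, 4.12 for DM1731 LTRs, 1.92 for internal DM1731 and 3.03 over all peaks. The wide Copia peaks ranked at a median percentile of 95.8 of the H1 knockdown list and 92.2 of the LacZ list. Internal DM1731 peaks ranked at percentiles of 24.3 in the H1 knockdown list and 20.6 in the LacZ list, so the element with the highest level per kb was low in its enrichment over input in both lists.

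**Figure D4:**
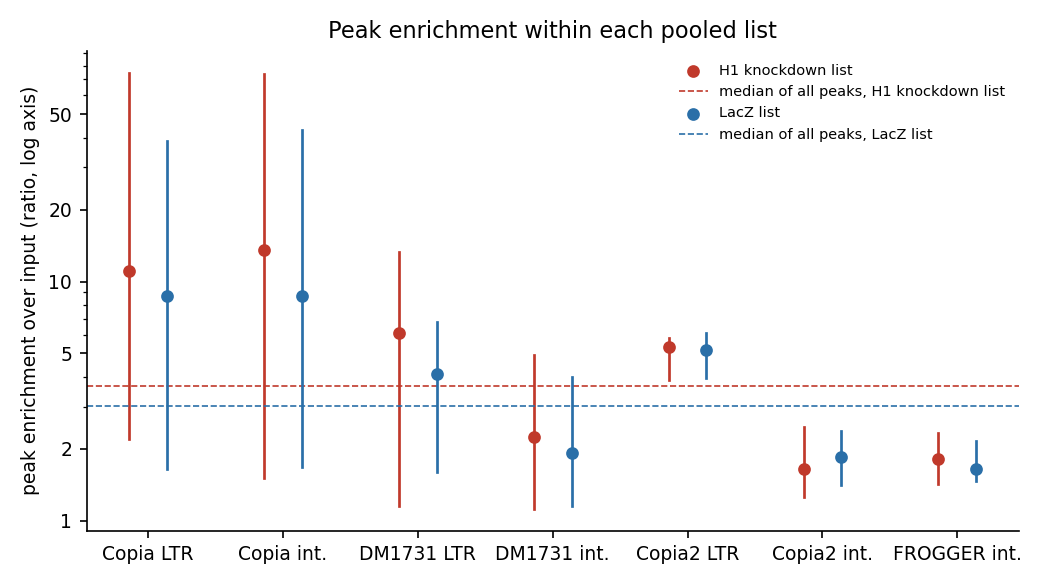
Authors' peak enrichment over input (ratio, log axis) for peaks of each element and part, with the H1 knockdown list in red and the LacZ list in blue; dots are medians, lines run from the lowest to the highest peak and dashed lines mark the median of all peaks of a list. The medians of Copia peaks lie above the list medians (13.5 for the internal part and 11.1 for the LTR in the H1 knockdown list). Those of internal DM1731, internal Copia2 and FROGGER peaks lie below them. Single peaks cross the H1 knockdown list median of 3.64: internal Copia peaks start at 1.51 there, Copia LTR peaks at 2.19, and internal DM1731 peaks reach 4.94. Heights are to be read within a list.

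LTR and internal loci were next compared over the whole superfamily and in the other superfamilies, as descriptions with no test. The 128 Copia superfamily LTR loci had a median fold of 0.05 and 70.3% above 0, and its 218 internal loci a median of -0.02 and 33.9% above 0. In the Gypsy superfamily the medians were -0.02 for 372 LTR loci and -0.05 for 1149 internal loci, with 36.6% and 21.1% above 0 for LTR and internal. In the Pao superfamily they were -0.005 for 26 LTR loci and -0.05 for 120 internal loci. LTR loci thus had the higher median in all 3 superfamilies over all chromosomes, and the gap was 0.07 in the Copia superfamily. LINE elements, which have no LTR, had a median of -0.07 over 389 loci. Over the Copia superfamily as a whole the gap was not seen on the arms. There the 8 Copia superfamily LTR loci had a median of -0.03 and the 46 internal loci one of -0.02, and without U and Uextra the gap over the superfamily was 0.00. By element, the arm medians were 0.265 for 2 Copia LTR loci, both peaks of the H1 knockdown list only, and -0.01 for 36 internal ones. They were -0.05 for both parts of DM1731, and -0.02 for LTR and -0.055 for internal loci of Copia2. Some of those internal Copia2 loci had a peak in a single list. Of the 36 internal Copia loci, 27 were wide loci, which may include LTRs. Gypsy and Pao LTR loci kept the higher median on the arms, 0.005 for 102 Gypsy LTR loci against -0.05 for 343 internal ones, and 0.00 for 3 Pao LTR loci against -0.05 for 39 internal ones.

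**Figure D5:**
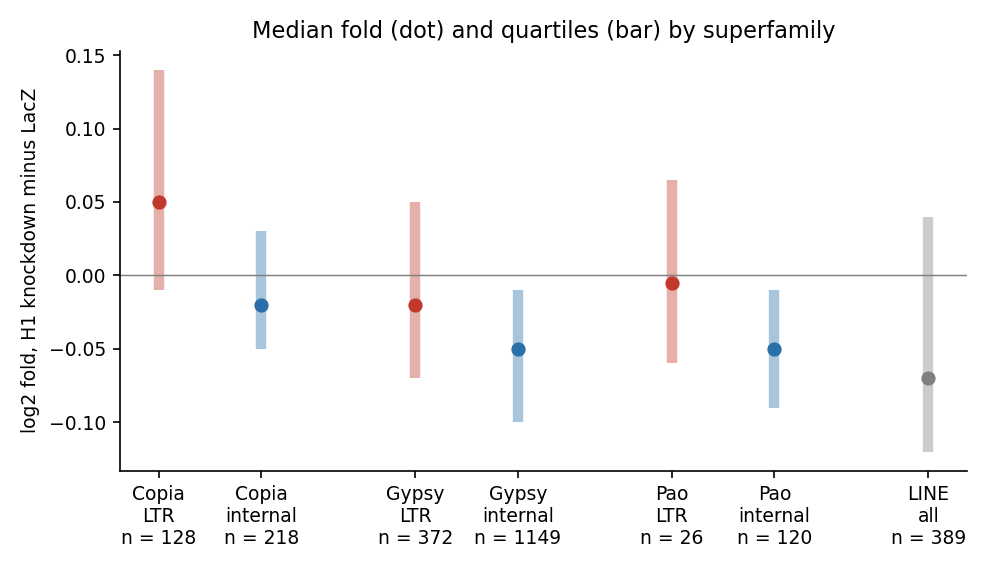
Median log2 fold (dot, H1 knockdown minus LacZ) and quartiles (bar) of LTR loci in red and internal loci in blue for the Copia, Gypsy and Pao superfamilies, with LINE loci in grey. LTR loci have the higher median in each superfamily, and the Copia superfamily has the highest LTR median, 0.05.

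Scaffolds and other chromosomes differed little over the superfamily as a whole, with medians of 0.01 over 292 scaffold loci and -0.02 over 54 other loci. Without U and Uextra the difference turned, to -0.02. For Copia the medians were 0.09 over 123 scaffold loci and -0.005 over 38 loci elsewhere, and the kinds of locus differed too: 120 of the 123 scaffold loci were LTRs or shorter internal loci, and 27 of the 38 others were wide loci. The part of locus kind in the difference was not tested. Within the internal part of Copia, the wide loci had the same median, -0.01, on 3 scaffold and 27 arm loci. Among scaffold Copia LTRs, the median was 0.135 for 52 loci on Uextra and 0.26 for 9 on U, where folds ran from 0.02 to 0.46. Both sets include loci with a peak in H1 knockdown alone, so neither median is free of that choice. On U the middle locus itself, 9794707 to 9794973 with a fold of 0.26, is of that kind. For DM1731 the medians were -0.03 over 150 scaffold loci and -0.05 over 8 others. The placed scaffolds held few members: the medians were -0.06 for 7 loci on 2RHet, -0.04 for 8 on 3LHet, -0.025 for 4 on 3RHet and -0.05 for 5 on YHet.

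Most members had a peak in both lists. Of the 346 loci, 314 (90.8%) had peaks of both lists, 16 were found in H1 knockdown alone and 16 in LacZ alone, against 79.1% with both, 14.9% with H1 knockdown only and 5.99% with LacZ only over all loci. All 16 LacZ-only loci were internal: 10 of DM1731, 3 of Copia2, 2 of FROGGER and 1 of Copia. Of the 16 H1 knockdown-only loci, 9 were LTRs, 7 of Copia and 2 of DM1731. Such loci made up 7.03% of the LTR loci and 3.21% of the internal loci, against 10.1% of all repeat loci. The lists and the folds come from the same libraries, so the folds of one-list loci, with medians of 0.145 for H1 knockdown only and -0.075 for LacZ only, are no independent evidence. Where a locus had 1 Copia peak in each list, the H1 knockdown peak was the wider one at 54 of 55 Copia LTRs (98.2%) and at 71 of 92 internal Copia loci (77.2%), against 80.1% of 6083 loci of the whole table. At DM1731 the H1 knockdown peak was the wider one at 50 of 57 LTRs (87.7%) and at 59 of 82 internal loci (72%). Peaks were called separately per list, and the depth behind each list is unknown here.

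Somatic fly cells restrain transposons through endogenous small interfering RNAs, which Dicer-2 cuts from double-stranded RNA and AGO2 uses to cleave targets. Of 6 genes of that pathway, 4 had a site within 1000 bp of their TSS, and r2d2 and loqs had none. Dcr-2 had a log2 concentration of 7.92 in H1 knockdown and 7.59 in LacZ, a fold of 0.32 (DiffBind p = 0.0989 in the authors' deposited table). AGO2 had 8.17 in H1 knockdown and 7.93 in LacZ, a fold of 0.24 in the authors' deposited table. Hen1, which methylates the ends of these RNAs, had 8.75 in H1 knockdown and 8.48 in LacZ, and blanks, a double-stranded RNA binding protein gene, 9.16 in H1 knockdown and 9.08 in LacZ. All 4 folds were above 0, as were 87.6% of the 5206 loci with no repeat annotation (median 0.15), and none had an unadjusted p under 0.05, so the count lies near that background.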

How the data were processed

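RNAPII ChIP and input libraries of S2 cells were made from formaldehyde-fixed, sonicated chromatin, per the labels' protocols. Bowtie2 2.2.2, MACS 1.4.2, DiffBind 2.10.0, DESeq2 and the build dm3 are named in the submitters' processing notes, without settings, and the peak names in the files say MACS2 and pooled. The sources used here do not say how reads that fit several copies were placed.

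The authors deposited a table of 14357 peaks with log2 concentrations per condition, a log2 fold, and DiffBind p-values with FDR, per the file headers. The authors also deposited, for each peak, the fold enrichment over input as a ratio, −log10 q, the pileup signal and a Homer annotation, per the file headers. No value per library was given, so the library-level model that was planned could not be run, and read depth, standard deviations and intervals over replicates cannot be stated. The deposited fold equalled the difference of the concentrations within 0.01.

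Entries were merged into loci by overlap of at least 1 bp with Python 3.11.15, numpy 2.4.6, pandas 2.3.3 and scipy 1.17.1, and the merging was tested on simulated data. A locus passes at an FDR under 0.05. Sites named are those with an unadjusted p under 0.05, the 5 largest and 5 smallest folds, the 5 highest concentrations (ties at the last place included) and every element name. Single loci named beyond these (introns, split copies, the 2L stretch, the wide FROGGER locus, the Copia2 LTRs) were chosen after their values were seen. The members, lists and width limit were chosen with earlier results of these data known. No sequence of an element was used.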

Additional observations from a re-analysis of the deposited data

How the results depend on the processing

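No paired analysis was possible because the deposited values are means per condition with no column per library; for the same reason no replicate could be left out. Of 53 alternative settings over the reported summaries, 41 left the value within its counting interval or within 1.5 times and 12 moved it, in 1 case with a change of sign, that of the scaffold minus arm difference. The median fold of Copia superfamily loci, 0.00, was -0.02 without U and Uextra and 0.07 for the element Copia alone. The count of loci past the test, 0 at the FDR, was 2 at an unadjusted p under 0.05. The share of loci with a fold above 0, 47.4%, was 23.1% after subtracting the median of all loci and 70.5% after subtracting that of other repeats. The LTR minus internal difference, 0.07, was 0.03 in loci above a concentration of 8.26, 0.00 without U and Uextra, 0.12 for Copia alone and 0.035 for DM1731 alone, the last pair chosen after seeing the data. The scaffold minus arm difference, 0.03, turned to -0.02 without U and Uextra. The median of Copia LTR loci, 0.14, was 0.05 above a concentration of 8.26 and 0.265 without U and Uextra, where 2 loci remain, and 0.135 over the 56 loci with peaks in both lists, a setting also chosen after seeing the data. The causes of these shifts were not tested, and neither was the part of the smaller number of loci that some settings leave. Depth per library is unknown, so the smallest detectable difference cannot be stated.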
